A study of Arabidopsis thaliana with 6 samples.

Results

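The SKU5 family of Arabidopsis thaliana was examined in G2/M cells sorted from roots and in complete root meristems. The family is made up of SKU5 and the SKU5-similar genes, written sks or SKS. Of 10 family loci looked for, 4 had a probe set that the platform annotation gives to 1 gene alone: SKU5 (AT4G12420), sks15 (AT4G37160), sks16 (AT2G23630) and sks18 (AT1G75790). The other 6 (AT4G25240, AT5G51480, AT5G48450, AT1G76160, AT1G41830 and AT5G66920) are unnamed here and were not analysed, and neither were 9 further loci of the family. Each of the 4 genes had 1 probe set, out of 22746 tested. The genes sks15 and sks16 were chosen by the size of their difference between the groups, among the largest falls of an earlier comparison of these same arrays, so their levels are described without a test. SKU5 and sks18 entered as members of the family.

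SKU5 encodes a glycoprotein tied to the outer face of the plasma membrane by a glycosylphosphatidylinositol (GPI) lipid anchor and also found in the cell wall. Roots of sku5 mutants skew to one side as they grow along a surface, so the gene is known for its part in directional growth. The family resembles the multicopper oxidases, a large class that includes laccases and ascorbate oxidases, but SKU5 lacks residues that bind copper in those enzymes, and what the family members catalyse is not settled. The SKU5-similar genes are named for their sequence likeness to SKU5.

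Of the 6 Affymetrix ATH1 arrays, 3 held G2/M cells that a fluorescence-activated cell sorter (FACS) had picked out of roots with a CYCB1;1-GFP reporter. The cyclin CYCB1;1 builds up as cells approach division. The other 3 held whole root meristems cut out under a binocular microscope. All plants were of accession Col-0, grown upright on agar plates with sucrose. The labels give neither plant age nor whether the dissected roots carried the reporter. Cell selection and handling (sorting or dissection) changed together between the groups and cannot be told apart. The series names the samples as biological replicates, so a p-value reflects the spread among these samples only.

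Array distributions were near-identical, with medians between 3.61 and 3.79 on the log2 scale. Pearson's r across probe sets was at least 0.996 within the meristems, at least 0.967 within the sorted cells and at least 0.952 across the groups. The lowest value in the table, 2.27, is called the floor here. Poly-A spike-in control probe sets read high on sorted replicate 1 (median 5.92) and on the meristems (6.43 to 7.20), and low on sorted replicates 2 and 3 (2.88 and 2.83). Sorted replicate 1 also stood apart in 2 genes of elongating root hairs, the expansins EXPA7 (7.07 against 2.42 and 2.69 in sorted replicates 2 and 3) and EXPA18 (6.67 against 2.31 and 2.35). The 5 measured G2/M markers, AUR1, AUR2, AUR3, BUBR1 and SCL28 (AT1G63100), were all called higher in the sorted cells, by 1.86 to 2.73 log2. Of all probe sets 4.44% were called higher. With the replicate number as a block 0 of the 5 markers were called, and 3 of 5 without sorted replicate 3 or any 1 meristem. The marker lists were chosen with earlier results of these data known, so these calls are no independent check of the sort. EXPA7 and EXPA18 were the 2 measured root hair markers of 7 listed, and neither was called (limma adjusted p = 0.595 and 0.613). Their summed log2 level was 4.55 to 4.57 in the meristems and 4.73 to 13.74 in the sorted cells. In the meristems both genes read 2.27 to 2.29, at or near the floor, so the summed level there is background. With spike-in carriage as a block, which sets sorted replicate 1 against the meristems, EXPA7 differed by 4.79 log2 and EXPA18 by 4.39 log2. Both values rest on that 1 sorted array. The root cap and epidermis gene CR4, also known as ACR4, was not called either (0.26 log2, SE 0.14, limma adjusted p = 0.370; 0.0444 with the arrays centred on reference genes). No marker of endodermis or stele was measured under its own name.

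The sks15 transcript was high in the meristems and much lower in the sorted cells. Its log2 level was 9.82, 10.20 and 10.12 in meristem replicates 1, 2 and 3, and 6.51, 6.06 and 6.37 in sorted replicates 1, 2 and 3. Every sorted array lay below every meristem array, with a gap of 3.31 log2 between the groups. Meristem and sorted means were 10.05 ± 0.20 and 6.31 ± 0.23 (SD, n = 3 each), a difference of -3.73 log2 (SE 0.17) or 13.3-fold. The sorted level was still 4.04 log2 above the floor, so sks15 was read well above background in both groups. Of the 22746 probe sets 55 had a more negative difference, which describes how the gene was chosen and tests nothing.

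The sks16 transcript showed the same arrangement and came close to background in the sorted cells. Its log2 level was 7.82, 8.66 and 7.87 in meristem replicates 1, 2 and 3, and 3.58, 2.71 and 3.25 in sorted replicates 1, 2 and 3. The groups did not overlap, and the gap between them was 4.24 log2. The means were 8.12 ± 0.47 and 3.18 ± 0.44 (SD, n = 3 each), a difference of -4.94 log2 (SE 0.35) or 30.6-fold, with 15 probe sets at a more negative difference. The sorted mean lay 0.91 log2 above the floor, and sorted replicate 2 lay 0.44 above it, so this fold is measured against a level close to background. In a sample of mixed cells, fewer cells of a type and less RNA per cell cannot be told apart, and this holds for both genes.

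SKU5 itself went the other way and was higher in the sorted cells by a smaller amount. Its log2 level was 9.37, 9.43 and 9.52 in meristem replicates 1, 2 and 3, and 10.20, 10.09 and 10.23 in sorted replicates 1, 2 and 3. The groups did not overlap, and the gap of 0.57 log2 between them was wider than the range within the meristems (0.15) or within the sorted cells (0.14). The means were 9.44 ± 0.08 and 10.17 ± 0.07 (SD, n = 3 each). SKU5 rose by 0.73 log2 (SE 0.06, 95% interval 0.58 to 0.89), or 1.66-fold, with an adjusted p of 0.00611 from limma with Benjamini-Hochberg adjustment over all 22746 probe sets. With the replicate number as a block the same difference had an adjusted p of 0.0629 and was not called. Calls in either direction made up 11.5% of all probe sets, and 4.44% were called higher (1009, against 79 with the block). A larger positive difference than that of SKU5 was found for 1461 probe sets.

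sks18 was read at 2.27, the floor, on all 6 arrays, so no level and no difference can be given for it at this sensitivity. Of the 4 family genes, 3 therefore had values above the floor on every array. SKU5 was higher in the sorted cells, and sks15 and sks16, which were chosen for their falls, were lower. These signs do not tell how the family moved as a whole. Non-overlapping groups were found for 30.7% of all probe sets, and 7.06% were called lower. Nothing is read from these shares about sks15 and sks16, whose place among the falls was the reason for their choice.

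**Figure D1:**
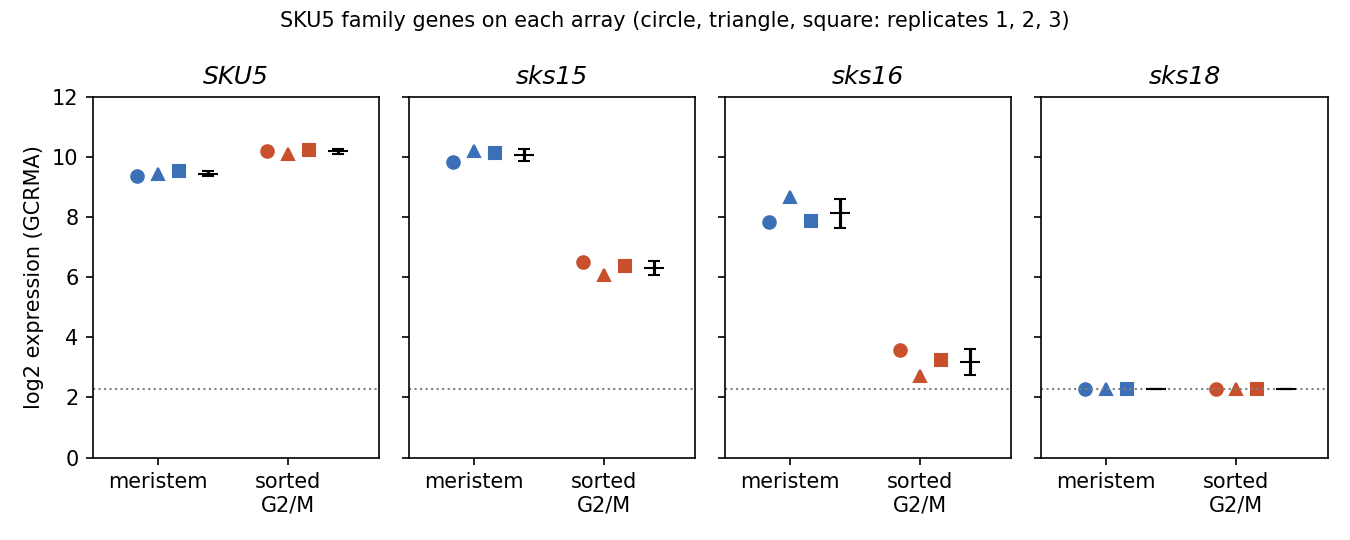
Log2 expression (vertical axis, GCRMA values) of SKU5, sks15, sks16 and sks18 in the 3 meristem arrays (blue) and the 3 sorted G2/M arrays (orange), with markers for replicates 1, 2 and 3, the mean with SD in black and the floor of 2.27 as a dotted line. The sorted values of sks15 and sks16 lie at least 3.31 and 4.24 log2 below the meristem values, those of SKU5 lie above the meristem values, and sks18 stays on the floor.

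The arrays within a group could also be set side by side. Sorted replicate 2 had the lowest level of all 3 genes that were above the floor, at 0.25, 0.47 and 0.08 log2 below its group mean for sks15, sks16 and SKU5 (deviations of -0.25, -0.47 and -0.08). Sorted replicate 1 had the highest level of sks15 (0.20 above its group mean) and of sks16 (0.40 above), while sorted replicate 3 had the highest level of SKU5 (0.06 above). In the meristems replicate 2 was highest and replicate 1 lowest for both sks15 and sks16, and SKU5 was highest in replicate 3. These within-group deviations were small beside the difference between the groups for each gene.

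Each sorted array could be set against the meristem mean. Sorted replicate 1, the 1 sorted array that carried the poly-A spike-ins as the meristems did, differed from the meristem mean by -3.54 log2 for sks15, by -4.54 for sks16 and by 0.76 for SKU5. Sorted replicates 2 and 3 differed from it by -3.99 and -3.68 for sks15, by -5.41 and -4.87 for sks16 and by 0.65 and 0.79 for SKU5. For sks15 and sks16 these are the values behind their choice, and with 1 sorted array of the same spike-in status as the meristems the part of that status was not tested. Sorted replicate 1, the array with high EXPA7 and EXPA18, showed the smallest differences of sks15 and sks16. This rests on 1 array, and a link between these levels was not tested.

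Markers of the cortex, a ground tissue layer of the meristem, moved with sks15 and sks16. Both listed markers were called lower, beside 7.06% of all probe sets, and this list too was chosen with earlier results known. PEP (AT1G09750) stood at 7.91, 7.57 and 7.14 in the meristems and at 3.42, 3.11 and 2.54 in the sorted cells. It fell by 4.52 log2 (SE 0.33, limma adjusted p = 0.00512). Its sorted mean of 3.02 lay close to the floor of 2.27. The size of this fall is thus measured against a level close to background. CO2 (AT1G62500) fell by 0.79 log2 (SE 0.11, limma adjusted p = 0.0191), and this call was lost with the replicate block (adjusted p = 0.129), the trended prior (0.0860), the spike-in block (0.0781) and without sorted replicate 2 or 3 or meristem replicate 1 or 3 (0.0555 to 0.0709). The summed log2 level of both markers lay between 11.24 and 12.05 in the meristems and between 6.05 and 6.83 in the sorted cells. The part of the cortex in the lower sks15 and sks16 levels was not tested.

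The gene pair was compared over the 6 arrays after subtracting each gene's own mean. The profiles of sks15 and sks16 then differed by a root mean square of 0.65 log2, and the group difference of sks16 was larger by 1.20 log2 (difference of differences -1.20). This describes the values on which both genes were chosen, and no ratio of the folds is given, since sks16 lay close to the floor in the sorted cells. In the order of protein-coding genes in the RefSeq table of TAIR10.1, a methylesterase gene stands directly before both genes, MES9 before sks15 and MES1 before sks16; neither is named on its own in the annotation used here. The first gene after sks15, AT4G37170, was not called (0.67 log2, SE 0.23, limma adjusted p = 0.169; 0.0477 without sorted replicate 1 and 0.0203 with reference centring), and the next one, AT4G37180, was higher in the sorted cells (1.64 log2, SE 0.21, limma adjusted p = 0.0171; 0.0726 with the replicate block, and 0.0632 to 0.0836 without sorted replicate 3 or any 1 meristem). Both measured neighbours thus had differences of opposite sign to that of sks15, whose sign was set by its choice. No gene within 2 places of sks16 was measured under its own name. Near sks18, TUB1, AT1G75800 and AT1G75810 were measured and not called. Of the 2 genes before and the 2 after SKU5 in that order, 1 was measured: Hop3, a heat shock co-chaperone gene, was higher in the sorted cells (1.497 log2, SE 0.11, limma adjusted p = 0.00506; 0.0547 with the replicate block).

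Likeness of profile was measured as the smallest root mean square difference over the 6 arrays, each gene centred on its own mean. In this measure the size of the difference between the groups weighs most. The search covered 1532 of the 13286 genes named singly, those with a symbol. Genes named only by locus number, among them the cortex marker PEP (AT1G09750), were left out and can lie nearer than those given. Nearest to sks16 were Prx37, a class III peroxidase of the cell wall (0.47 log2), XTH16, a xyloglucan endotransglucosylase (0.52), and SBT4.12, a subtilisin-like protease (0.54). They were followed at a distance by MSRB5, a methionine sulfoxide reductase (0.77), and CXE18, a carboxylesterase-family gene (1.03). SBT4.12 had levels of 8.64, 7.83 and 8.54 in the meristems and 3.71, 2.67 and 3.23 in the sorted cells. As for sks16, its lowest sorted array was replicate 2 and its highest replicate 1, but its meristem replicate 2 was the lowest, where that of sks16 was the highest.

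Nearest to sks15 among the same 1532 genes were CXE18 (0.503 log2), MSRB5 (0.54) and HAT2, a homeodomain-leucine zipper transcription factor induced by auxin (0.57). SAH7 (0.61) and scpl48, a serine carboxypeptidase-like gene (0.63), followed. CXE18 went from 6.57, 6.90 and 5.98 in the meristems to 3.22, 3.48 and 3.65 in the sorted cells. MSRB5 went from 8.36, 8.47 and 8.85 to 5.70, 3.51 and 5.07, a spread in the sorted cells (SD 1.13) several times that of sks15. CXE18 and MSRB5 were on both lists. These genes were found by their likeness to sks15 and sks16 in this same comparison, so their differences carry no test either.

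The same search for SKU5 was added after its values were seen. Its distances were smaller, but they scale with the difference between the groups, 0.73 log2 for SKU5, so closer likeness cannot be read from them. Nearest were OPCL1, a ligase of jasmonate synthesis (0.06 log2), ALATS, an alanyl-tRNA synthetase (0.105), and NRPA2, a large subunit of RNA polymerase I (0.13). HMT-1, a homocysteine methyltransferase (0.13), and LIS, a splicing factor gene (0.145), followed. The differences of all these genes lay between 0.55 and 0.71 log2. OPCL1 had levels of 6.87, 6.98 and 7.12 in the meristems and 7.65, 7.61 and 7.66 in the sorted cells.

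**Figure D2:**
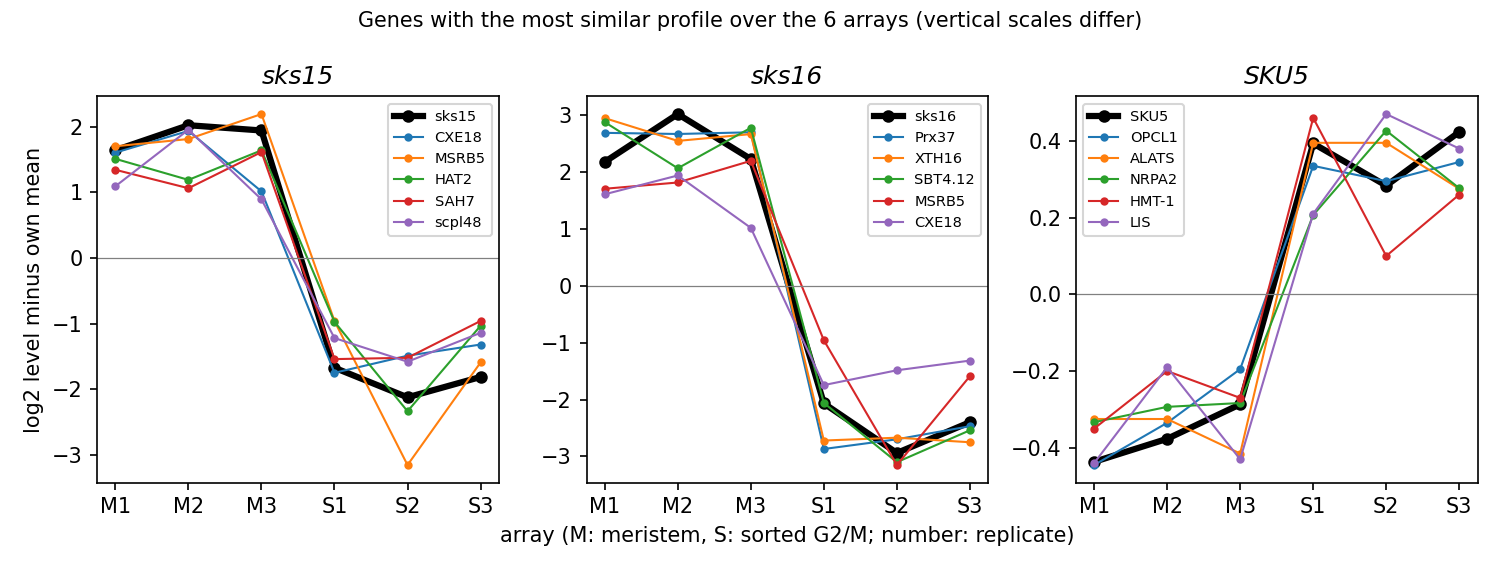
Log2 level minus the gene's own mean over the 6 arrays (vertical axis, scales differ between panels) on meristem arrays M1 to M3 and sorted arrays S1 to S3, for sks15, sks16 and SKU5 (black) and the 5 genes nearest to each (colours). Only genes with a symbol were searched. The genes near sks15 and sks16 differ between the sorted and meristem arrays by -5.43 to -2.62 log2. Those near SKU5 rise by 0.55 to 0.71 log2.

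The family was then set beside 8 lists of related genes: laccases, other multicopper oxidases, small blue-copper proteins (plantacyanin and uclacyanins), the COBRA family of wall proteins, GPI anchor synthesis, copper handling, genes whose mutants skew or twist, and respiratory burst oxidases. Of 70 entries 15 were measured under their own name, and 3 of these stood at the floor on all arrays. By limma none was called higher and 1 was called lower, beside 11.5% called among all probe sets; at an unadjusted p under 0.05 there were 2 higher and 3 lower. The median difference of the 15 genes was 0, as it was over all probe sets. The 3 genes at the floor supply that value, so a lack of shift cannot be read from it.

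The 1 called gene was LPR1, a multicopper oxidase with ferroxidase activity that acts in the root's response to low phosphate. Its log2 level was 3.52, 3.90 and 4.24 in the meristems and 2.63, 2.70 and 2.70 in the sorted cells. It fell by 1.21 log2 (SE 0.20, limma adjusted p = 0.0316), and since the sorted values lay within 0.5 of the floor no fold is given. The call was lost with the replicate block (adjusted p = 0.116), the spike-in block (0.115), the trended prior (0.0625) and without any 1 array except meristem replicate 1 (0.0555 to 0.127). Of the 4 other genes of this list none was called. The ascorbate oxidase homologue AT4G39830 stood near the floor in the meristems (2.46, 2.50 and 2.41) and at 2.78, 3.06 and 3.46 in the sorted cells (0.64 log2, SE 0.19, limma adjusted p = 0.123; 0.0177 with reference centring). AT5G21100 and AT5G21105 stayed within 0.31 and 0.77 log2 of the floor on all arrays, and LPR2 was at the floor. The 1 measured laccase, LAC16, and the plantacyanin gene ARPN were also at the floor throughout.

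COB encodes a GPI-anchored protein of the wall that, like SKU5, is needed for oriented growth of root cells. Its level was 9.65, 9.63 and 9.82 in the meristems and 9.04, 8.24 and 8.67 in the sorted cells. The groups did not overlap, but the difference of -1.05 log2 (SE 0.23) did not pass the test (limma adjusted p = 0.0612), and it did so without sorted replicate 1 (-1.25 log2, adjusted p = 0.0330), with probe sets of low level left out (0.0118) and with centring on expressed probe sets (0.0468) or on reference genes (0.0430). COB was not called with the replicate block (limma adjusted p = 0.167) or without any 1 meristem (0.179 to 0.192). With the spike-in block its difference was -0.66 log2. COB and SKU5 thus had differences of opposite sign, but that of COB was not called in the main fit.

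Of 3 measured genes of GPI anchor synthesis none was called. AT1G08750 (GPI8), of the transamidase that attaches the anchor, had a difference of -0.33 log2 (SE 0.13, limma adjusted p = 0.236; 0.0298 and -0.46 log2 without sorted replicate 2) and SETH1 one of -0.04 log2 (SE 0.04, limma adjusted p = 0.625). CCS, which delivers copper to superoxide dismutase, stood at 7.41, 7.59 and 7.49 in the meristems and 7.77, 8.15 and 8.00 in the sorted cells (0.48 log2, SE 0.12, limma adjusted p = 0.0806). It passed the test without sorted replicate 1 (0.58 log2, adjusted p = 0.0358), with low-level probe sets left out (0.0328) and with reference centring (0.00843).

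Of the genes whose mutants skew or twist, 2 were measured and neither was called. SPR1, a microtubule-associated protein also known as SKU6, had a difference of -0.33 log2 (SE 0.09, limma adjusted p = 0.0973) and was called without sorted replicate 1 (-0.41 log2, adjusted p = 0.0312). TUA6, an alpha-tubulin, had one of -0.19 log2 (SE 0.09, limma adjusted p = 0.317). The respiratory burst oxidase AT1G19230 was at the floor on 4 of 6 arrays and reached 3.17 in sorted replicate 1 (limma adjusted p = 0.592). With the spike-in block, which leaves that 1 sorted array, the difference of AT1G19230 was 0.90 log2. SKU5 was therefore the 1 gene called higher in the main fit among the genes tested in the family and the 8 lists. Of all probe sets 4.44% were called higher, so nothing particular to SKU5 is read from this count. Its call was lost with the replicate block. With low-level probe sets left out or with reference centring, genes of the 8 lists were called higher too.

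**Figure D3:**
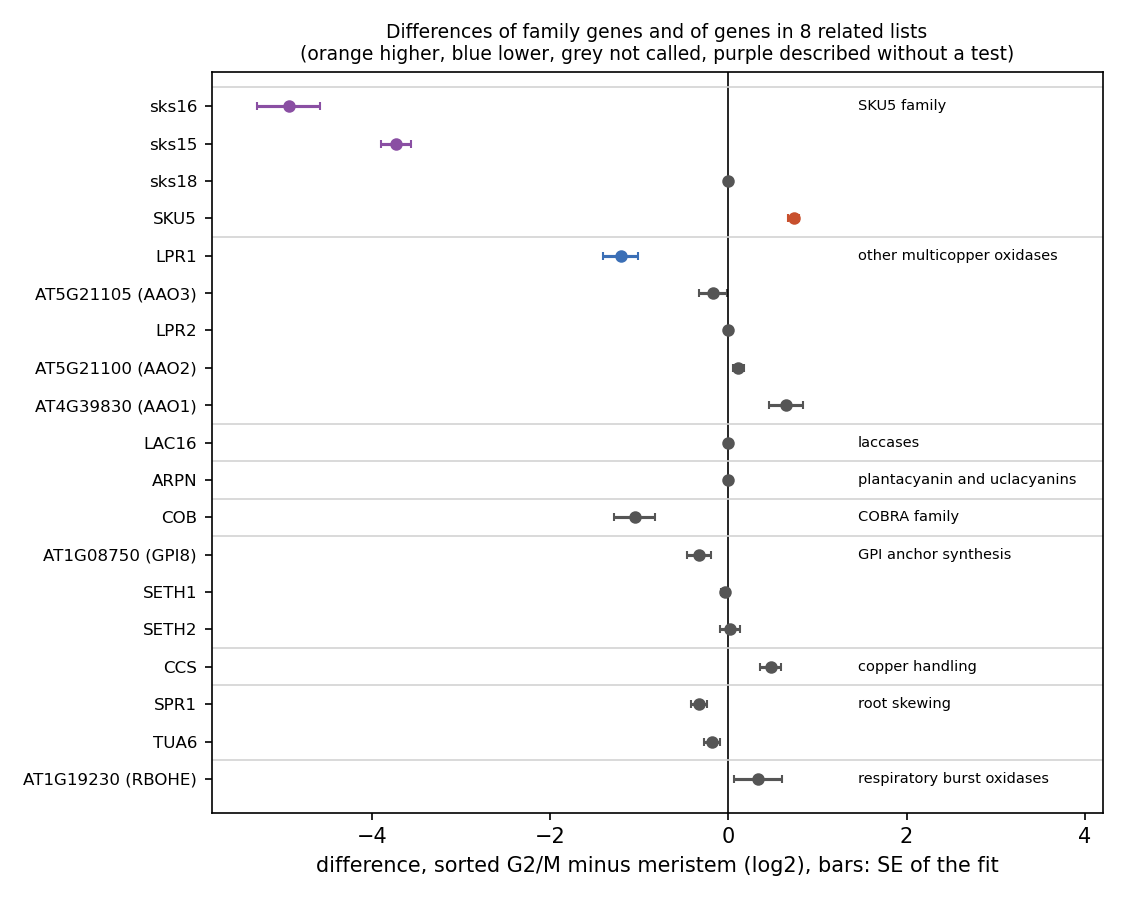
Difference between sorted G2/M cells and meristems (horizontal axis, log2, bars show the SE of the fit) for the 4 family genes and the 15 measured genes of 8 related lists. SKU5 (0.73) is the 1 gene called higher and LPR1 (-1.21) the 1 called lower, beside 4.44% and 7.06% of all probe sets. The genes sks15 and sks16, which were described without a test, lie at -3.73 and -4.94.

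The values of the family genes were recomputed under other settings. Over 13 alternatives the difference of sks15 lay between -3.85 and -3.54 log2 and that of sks16 between -5.14 and -4.54. That of SKU5 lay between 0.70 and 0.88. The replicate block, the filter at the median level, the trended prior and the mean of a gene's probe sets cannot move these differences, only their SE. The signs of sks15 and sks16 were set by their choice. SKU5 was called under 12 of the 13, with adjusted p between 0.00245 and 0.0406, and the exception was the replicate block given above. With the arrays centred on 5 reference genes, the median difference over the 11503 better-expressed probe sets (mean above the median of all values) went from 0.02 to 0.17 log2, and that of SKU5 to 0.88.

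**Figure D4:**
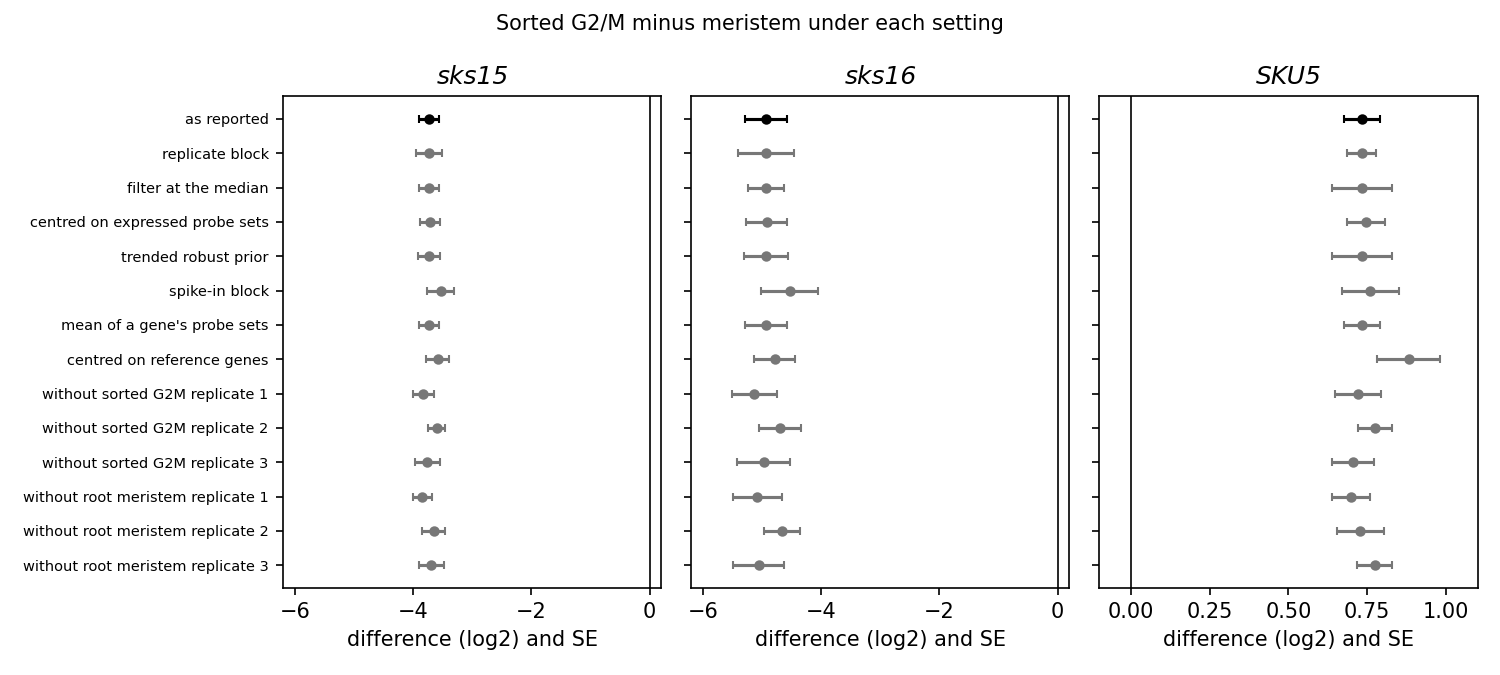
Difference between sorted G2/M cells and meristems (horizontal axis, log2, with SE) of sks15, sks16 and SKU5 under each setting named on the vertical axis, with the reported value in black and the 13 alternatives in grey. The signs are the same under every setting shown, some of which cannot move a difference, and the sks16 values span -5.14 to -4.54.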

How the data were processed

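The deposited table gives a log2 level for each probe set on each array. GCRMA made these values, per the submitters' processing notes (version not given in the sources used here); it removes background by probe sequence, aligns the arrays and combines the probes of a set. The authors' log2 values were used without further normalization or filter; 28.2% stood at the floor. Of 22810 probe sets 64 controls were left out. Of the rest, 13513 carry 1 gene in the platform annotation, 503 carry several and 8730 none. Names come from RefSeq (TAIR10.1), matched by gene identifier; coordinates are left out, since the files name no build. The highest-mean probe set stood for a gene.

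Groups were compared with limma 3.58.1 in R 4.3.3 (lmFit, eBayes), with Benjamini-Hochberg adjustment over all probe sets; a call is an adjusted p under 0.05. The code was tested on simulated data. Array number, 3 per group, limits the precision. Deviations from group means correlated between same-numbered arrays (r = 0.122, 0.249 and 0.106 over 11503 probe sets). Correlations between different-numbered arrays were not computed, so these values alone do not show that the replicate number pairs the samples. The main fit leaves this possible pairing out and takes the arrays as independent. A fit with the replicate number as a block is given where it ends a call. Members and lists were chosen with earlier results of these data known. By the rule for naming, genes are all measured family loci, up to 4 called genes per list (or the 2 with the smallest p), all measured G2/M and cortex markers, and the 5 nearest profiles of sks15 and sks16. The genes nearest to SKU5, the chromosomal neighbours, EXPA7, EXPA18, CR4 and the uncalled other multicopper oxidases were named outside this rule, after their values were seen.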

Additional observations from a re-analysis of the deposited data

How the results depend on the processing

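The alternatives were the replicate block, a filter at the median level, centring on expressed probe sets, a trended robust prior, the spike-in block, the mean of a gene's probe sets, and each array left out; centring on 5 reference genes was chosen after seeing the data. SKU5 kept its direction under all 13, though the replicate block, the filter, the trended prior and the probe set mean cannot move its difference. It kept its call under 12. With the replicate block, which uses a possible pairing of same-numbered arrays, its difference of 0.73 log2 was not called (limma adjusted p = 0.0629). Leaving out 1 array gave 0.70 to 0.78 for SKU5, -3.85 to -3.61 for sks15 and -5.14 to -4.67 for sks16. In all probe sets 1009 were called higher and 1605 lower, against 79 and 156 with the replicate block and 516 and 733 with the trended prior. There were 1645 higher and 2047 lower calls with the filter, 1631 and 1413 with the spike-in block, 3444 and 1660 with reference centring, and 1752 and 1631 without sorted replicate 1, so higher calls outnumbered lower ones under the last 3. Leaving out 1 array gave 323 to 1752 higher and 636 to 1631 lower calls, with both 323 and 636 coming without meristem replicate 2. In the list of other multicopper oxidases the 1 lower call became 0 with the replicate block, the filter (which left no LPR1 to test), the trended prior and the spike-in block, and reference centring gave 1 higher call. Over the 8 lists, 0 were called lower with the replicate block, the trended prior and the spike-in block, and 2 with either centring. There, 1 was called higher with the filter or the spike-in block and 2 with reference centring. Leaving out 1 array gave 0 to 2 lower and 0 to 1 higher over the 8 lists, and 0 to 1 lower for the other multicopper oxidases, the GPI anchor genes and the root skewing genes. The cause of these changes was not tested beyond the missing LPR1. The filter left sks18 out, so it has no value there. Values near the floor, such as sks16 and LPR1 in the sorted cells, limit how far a fold can be read.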
